A study of Mus musculus with 6 samples.

Results

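Interferon-stimulated genes were followed in mouse liver as a set of 33 genes, chosen by symbol as widely known targets of interferon signalling. All 33 were found among the 55385 genes of the deposited table, and all 33 were among the 11677 genes with a mean FPKM (fragments scaled to gene length in kilobases and to 1e6 counted fragments) of at least 0.5, the set that was tested. The livers came from 6 mice of the C57BL/6 strain at 6 weeks of age, 2 mice in each of 3 groups. Wild-type control mice (replicates 3 and 6) were injected into the abdominal cavity with 200 µL of phosphate-buffered saline. Wild-type mice (replicates 1 and 4) and Optn-/- mice (replicates 4 and 5) were given acetaminophen at 500 mg per kg by the same route, and all livers were taken at 6 h. Optn-/- mice without acetaminophen were not analysed here, and the labels do not say how the Optn allele was made. Acetaminophen at high dose injures hepatocytes through a reactive metabolite. Optineurin, the product of Optn, links damaged mitochondria to autophagy and binds TBK1, a kinase that activates the interferon regulatory factor IRF3.

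Interferons are secreted proteins that cells release when nucleic acid or microbial sensors are engaged. Type I interferons act through the receptor pair IFNAR1 and IFNAR2 and a complex that includes STAT2 and IRF9, which binds the interferon-stimulated response element (ISRE). Interferon gamma acts through IFNGR1 and IFNGR2, and many of its target genes carry the gamma-activated site (GAS). In liver, hepatocytes, Kupffer cells (the resident macrophages), endothelium and incoming leukocytes can all express such genes, so a change in bulk RNA cannot tell fewer cells of a type from less RNA per cell.

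The promoters of 7 members are shown because these genes took different courses in the data below although most carry the same response element. Each is the 150 bases before the annotated start, 5′ to 3′ on the strand of the gene, from RefSeq on GRCm38.p6. Capitals mark the ISRE core (GAAA, any 2 bases and GAAA, or on the other strand TTTC, any 2 bases and TTTC) and the GAS core (TTCNNNGAA, which reads the same on both strands). Overlapping matches run together in the print. The windows of Gbp2 and Irgm2 end at their RefSeq starts, which lie inside the gene ranges given by the deposited table, and so do their marked cores.
Isg15, chr4:156200819-156200968, minus strand: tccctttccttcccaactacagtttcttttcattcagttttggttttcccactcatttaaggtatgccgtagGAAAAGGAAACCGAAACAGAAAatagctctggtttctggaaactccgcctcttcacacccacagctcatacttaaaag
Oas1a, chr5:120907526-120907675, minus strand: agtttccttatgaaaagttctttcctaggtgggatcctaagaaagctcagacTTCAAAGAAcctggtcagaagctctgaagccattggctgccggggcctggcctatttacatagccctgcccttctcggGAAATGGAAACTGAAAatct
Rsad2, chr12:26456453-26456602, minus strand: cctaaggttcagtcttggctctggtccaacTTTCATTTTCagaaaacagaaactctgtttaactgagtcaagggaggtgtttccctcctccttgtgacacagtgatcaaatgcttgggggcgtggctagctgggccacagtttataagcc
Gbp2, chr3:142620513-142620662, plus strand: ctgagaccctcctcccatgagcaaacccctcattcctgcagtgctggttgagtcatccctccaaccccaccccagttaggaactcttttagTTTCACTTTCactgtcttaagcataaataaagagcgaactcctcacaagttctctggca
Igtp, chr11:58199406-58199555, plus strand: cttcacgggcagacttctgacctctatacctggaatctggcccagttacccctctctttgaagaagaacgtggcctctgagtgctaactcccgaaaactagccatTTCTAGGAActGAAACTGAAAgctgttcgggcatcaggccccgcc
Irgm2, chr11:58214827-58214976, plus strand: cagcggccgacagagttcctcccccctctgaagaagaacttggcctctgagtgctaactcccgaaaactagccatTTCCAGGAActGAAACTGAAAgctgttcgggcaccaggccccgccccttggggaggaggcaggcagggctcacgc
Irf1, chr11:53769864-53770013, plus strand: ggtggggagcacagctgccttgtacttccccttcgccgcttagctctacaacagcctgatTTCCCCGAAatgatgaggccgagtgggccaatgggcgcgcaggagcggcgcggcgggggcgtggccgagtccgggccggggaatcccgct

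Isg15 held 3 overlapping ISRE cores and Oas1a held 2 with 1 GAS core. Rsad2 and Gbp2 held 1 ISRE core each, Irf1 held only a GAS core in the stretch shown, and Igtp and Irgm2 held 1 of each. The promoters of Igtp and Irgm2 shared a block of 107 bases with 99 identical and 8 differing. Promoter windows of 300 bases, which run to 50 bases past the start, were matched for 26 of the 33 members. An ISRE core was found for 15 of the 26 members and for 3.99% of all 27025 genes with a window. A GAS core was found for 7 of the 26 and for 9.55% of all genes. These are matches of letters and not measured sites.

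Members also shared position. On chromosome 11 lay 8 of the 33, among them the immunity-related GTPases Igtp, Irgm1, Irgm2 and Ifi47. The guanylate-binding proteins Gbp2, Gbp3 and Gbp7 lay together on chromosome 3, Oas1a, Oasl1 and Oasl2 on chromosome 5, and Ifit1, Ifit2 and Ifit3 on chromosome 19. In the GENCODE M21 annotation, 13 of the 33 members have exons that overlap exons of another gene, 6 of them a gene on the same strand. Igtp (chromosome 11, 58199556 to 58207591) and Irgm2 (58199618 to 58222782, plus strand as well, GRCm38) overlap each other, so reads could be split between them in a way that is not known. Ifit3, Oas1a and Trim30a have close paralogs, and this likeness of sequence makes their single counts uncertain as well.

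Facts of the whole series that bear on these genes were as follows. Total counts ran from 59.1 to 77.3 M (1e6 counts), and the control, treated wild-type and knockout libraries held 48879 and 66716, 47885 and 41298, and 61585 and 49968 counts of the 33 genes. Alb, the hepatocyte plasma protein albumin, took 6.69% to 9.94% of the counts of a library. Optn had an FPKM of 0.316 and 0.457 in the knockout livers against 9.17 to 20.95 in the wild-type livers, so the libraries followed their genotype labels. Traces of other tissues divided the libraries across the groups. Summed CPM (counts per 1e6 total counts) of 12 skeletal muscle markers was 58.3 to 91.1 in control replicate 3 and both treated wild-type livers, and 0.580 to 1.01 in control replicate 6 and both knockout livers. The intestinal genes Muc2, Clca1 and Zg16 showed the reverse, with Muc2 at 3.47 to 6.83 CPM in the latter 3 libraries and at most 0.0676 in the former 3. The sum of all 12 intestinal markers divided the libraries less sharply. It was 59.0 CPM in control replicate 3, 31.1 and 28.7 in treated wild type, 82.3 in control replicate 6 and 65.6 and 88.0 in the knockout. Fabp2, a large part of that sum, was highest in control replicate 3 (50.3 CPM). Wild-type acetaminophen replicate 4 also held 158.8 CPM of neuron markers against 7.57 to 15.8 elsewhere. The treated wild-type livers lay in one of these library sets and the knockout livers in the other, so genotype and library set are linked in every comparison of the treated groups. A fit that holds the library set as a further term is given for the counts of calls, for the members called in wild type and for Oas1a. Other genes are shown without it, which does not mean that they were untouched by the library set. The set term rests on the controls alone, with a lone liver in each set.

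The ligands were at or near the limit of detection in all livers. Of 21 interferon genes (the alpha family, Ifnb1, Ifne, Ifnk, Ifnz, Ifng, Ifnl2 and Ifnl3), 0 reached the mean FPKM of 0.5. Ifnb1, the interferon beta gene, had a count of 0 in all 6 libraries, a result that still permits 3 counts, or 0.0507 CPM in the smallest library (counting error only). Ifng, the interferon gamma gene of T cells and NK cells, had 4 counts in knockout replicate 4 and 0 elsewhere. Ifnab, an alpha family gene, had 0 and 0 counts in the controls, 4 and 4 in the treated wild-type livers and 19 and 11 in the knockout livers, the highest counts of any ligand. Members of the alpha family are close copies, so these few counts cannot be placed firmly on 1 gene.

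Receptor genes were detected in all livers, and the smallest adjusted p among the 5 receptor chains tested in wild type was 0.153, for Ifnar1. Ifnar1 had an FPKM of 4.68 and 4.67 in the controls, 3.28 and 3.27 after acetaminophen in wild type and 3.18 and 3.11 in the knockout. These treated livers lay below both controls, and the log2 fold change in wild type was -0.30 ± 0.12 (SE, edgeR adjusted p = 0.153). Ifnar2 ran from 16.8 to 22.7, Ifngr1 from 2.18 to 4.35 and Ifngr2 from 4.07 to 5.81, and Il10rb, shared by the interferon lambda receptor, from 0.845 to 1.48, with overlapping groups for Ifnar2, Ifngr1 and Ifngr2 in wild type. Il10rb was lower in the treated wild-type livers than in the controls without passing the test (edgeR adjusted p = 0.288). Ifnlr1, the specific lambda receptor chain, was below the filter with 4 to 47 counts.

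Downstream of the receptors, Stat3 and the kinases Jak1 and Jak2 rose. Of the 10 tested receptor and proximal signalling genes, 3 rose and 1 fell after acetaminophen in wild type, where 8.36% of all tested genes rose and 5.92% fell. Stat3, which serves interleukin 6, rose by 1.25 ± 0.19 (edgeR adjusted p = 0.0139), Jak2 by 1.30 ± 0.22 (0.0184) and Jak1 by 0.59 ± 0.14 (0.044). Of the 9 tested sensors, adaptors and kinases upstream of interferon, 1 rose and 2 fell. Mavs, the mitochondrial adaptor of RNA sensors, fell from 23.1 and 25.1 to 10.1 and 11.6 (log2 fold change -0.95 ± 0.12, edgeR adjusted p = 0.00883). Irf3 fell by 0.66 ± 0.14 (0.0336), Myd88 rose by 0.74 ± 0.15 (0.0269), and Tbk1, which did not pass, stood at 1.09 ± 0.35 on the log2 scale (0.0946). In the treated knockout against saline, Mavs and Irf3 were lower by the same test (log2 fold change -1.003 ± 0.12 and -0.73 ± 0.14, edgeR adjusted p = 0.00509 and 0.0197). They were the only upstream genes of the 9 to pass, where 20.3% of all tested genes passed and 8.05% passed as lower.

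Other interferon regulatory factors and feedback genes also split. Of 7 tested factors outside the 33 genes, 2 rose and 2 fell after acetaminophen in wild type, beside 8.36% and 5.92% of all tested genes, and their median log2 fold change was -0.53. Irf2bp2, a corepressor that binds IRF2, rose from an FPKM of 5.90 and 5.12 to 26.2 and 18.0 (2.22 ± 0.23, edgeR adjusted p = 0.005), and Irf8 of myeloid cells rose from 0.724 and 0.853 to 1.66 and 1.35 (1.14 ± 0.22, edgeR adjusted p = 0.0246). Irf2bp1, a corepressor of the same family, fell by 0.81 ± 0.18 (edgeR adjusted p = 0.0351). Of 12 negative regulators, 3 rose and 1 fell. Socs3, which restrains STAT3 signalling, rose from 1.92 and 5.44 to 21.01 and 26.7, Ptpn1 rose by 1.30 ± 0.20 and Ptpn2, a tyrosine phosphatase gene, by 1.77 ± 0.31, while Cish fell by 1.30 ± 0.30 (edgeR adjusted p = 0.0157, 0.0146, 0.0188 and 0.0405). Socs1, the main brake on interferon receptor kinases, did not reach the filter, its highest count being 53.

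The first comparison of the 33 genes asks what acetaminophen does to them in wild-type liver at 6 h. Mx1 and Gbp2 rose, and Igtp, Ddx58 and Irgm2 fell, so 5 of 33 passed (edgeR adjusted p under 0.05) where 14.3% of all 11677 tested genes did. By direction, 2 rose against 8.36% of all genes and 3 fell against 5.92%. Positive fold changes were found for 17 of the 33 and for 52% of all tested genes, and the median of the 33 log2 fold changes was 0.03, beside 0.03 over all tested genes. An unadjusted p under 0.05 was found for 11 of the 33, 6 higher and 5 lower, and for 32.3% of all tested genes (17.3% higher and 15% lower). The FPKM of the groups did not overlap for 5 genes that were higher and 11 that were lower, beside 21.1% and 45.1% of all tested genes. With scaling by total count alone, which moved the median of all genes to -0.19, 0 rose and 5 fell, and Ifi35 and Zbp1 took the place of Mx1 and Gbp2. In limma on log2(FPKM + 0.5) the split was also 0 and 5.

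**Figure D1:**
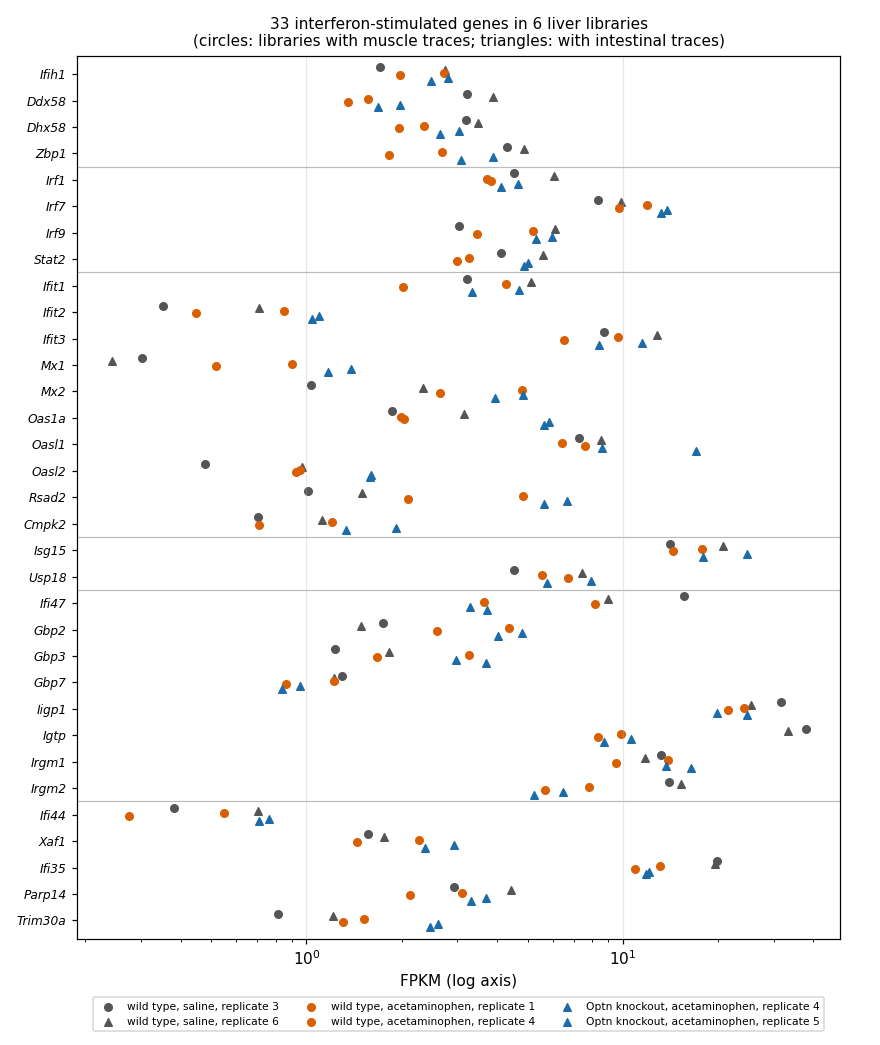
FPKM of the 33 genes (horizontal log axis) in each of the 6 livers, with genes grouped by role from sensors at the top to other regulators at the bottom; colour gives the group, circles the libraries with muscle traces and triangles those with intestinal traces. Both knockout points lie to the right of both treated wild-type points for Oas1a, and all 4 treated livers lie to the left of the controls for Igtp.

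Of the 4 sensors of nucleic acid, 1 passed after acetaminophen, Ddx58, and the FPKM of 3 lay below both controls in both treated wild-type livers, as it did for 45.1% of all tested genes. Ddx58 (chromosome 4, 40203773 to 40239825, minus strand, GRCm38), which encodes the RNA sensor RIG-I, had an FPKM of 3.20 and 3.90 in controls, 1.57 and 1.35 in treated wild type and 1.98 and 1.69 in treated knockout. All treated livers lay below both controls, and the fall in wild type was 1.06 ± 0.19 on the log2 scale (edgeR adjusted p = 0.0208, or 0.0825 in the fit with a library-set term). Zbp1, a sensor of Z-form nucleic acid that can start necroptosis, had 4.31 and 4.87 in controls, 2.67 and 1.82 in treated wild type and 3.90 and 3.09 in the knockout. The wild-type change of -0.81 ± 0.26 on the log2 scale did not pass (edgeR adjusted p = 0.0895). Dhx58, the regulator LGP2, lay below the controls without passing (-0.42 ± 0.20, edgeR adjusted p = 0.201), whereas Ifih1, the RNA sensor MDA5, overlapped them (0.29 ± 0.28, edgeR adjusted p = 0.524).

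Of the 4 transcription factors among the members, 0 passed in wild type, with an unadjusted p under 0.05 for 1 of them, Irf7, and with 0 called by DESeq2. Irf7, the factor that amplifies type I interferon production, had an FPKM of 8.33 and 9.88 in controls, 11.9 and 9.73 in treated wild type and 13.7 and 13.2 in the knockout. The treated wild-type livers overlapped the controls and the knockout livers were above all others. Stat2 had 4.12 and 5.58, 3.26 and 2.999, and 4.999 and 4.87 in the same order of groups, lowest in treated wild type. Irf1 ran from 3.72 to 6.04 and Irf9 from 3.02 to 6.09, each highest in control replicate 6.

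Of the 10 direct antiviral effectors, 1 passed in wild type, Mx1, and 7 had positive fold changes, beside 52% of all tested genes. Mx1 (chromosome 16, 97447035 to 97462907, minus strand), a dynamin-like GTPase whose product is not functional in most inbred mouse strains, had an FPKM of 0.303 and 0.243 in controls, 0.898 and 0.518 in treated wild type and 1.39 and 1.17 in treated knockout. The 3 groups did not overlap, and Mx1 rose by 1.57 ± 0.39 on the log2 scale in wild type (edgeR adjusted p = 0.0479, or 0.176 in the fit with a library-set term). Rsad2, which encodes viperin, had 1.01 and 1.499, 4.83 and 2.09, and 6.64 and 5.62 in the same order. Its groups did not overlap either, and the wild-type fold change missed the threshold (1.68 ± 0.44, edgeR adjusted p = 0.0557). Mx2, the neighbour of Mx1, had 1.04 and 2.34, 4.79 and 2.64, and 4.85 and 3.93 (1.36 ± 0.46 in wild type, edgeR adjusted p = 0.106).

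The Ifit genes, whose products bind viral RNA, did not separate treated wild-type livers from controls. Ifit1 had an FPKM of 3.20 and 5.13 in controls, 4.26 and 2.01 in treated wild type and 4.70 and 3.34 in the knockout, with a log2 fold change of -0.19 ± 0.44 in wild type (95% interval -1.26 to 0.88, edgeR adjusted p = 0.807). Ifit3 had 8.73 and 12.8, 9.61 and 6.51, and 11.5 and 8.39. Ifit2 was lower in level, at 0.352 and 0.708, 0.846 and 0.447, and 1.10 and 1.04. Cmpk2, a nucleotide kinase gene next to Rsad2, ran from 0.705 to 1.92, and its treated wild-type livers overlapped the controls.

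Neither gene of the ISG15 system passed in wild type. Isg15, a ubiquitin-like protein that is attached to other proteins, had an FPKM of 14.1 and 20.7 in controls, 17.8 and 14.4 in treated wild type and 24.7 and 17.9 in the knockout. Its log2 fold change in wild type was 0.11 ± 0.27 (95% interval -0.56 to 0.78, edgeR adjusted p = 0.821). Usp18, the protease that removes it, had 4.53 and 7.43, 5.55 and 6.73, and 7.95 and 5.77 (0.25 ± 0.28, edgeR adjusted p = 0.6). All 3 groups overlapped for Usp18.

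The guanylate-binding proteins and immunity-related GTPases, families that serve defence against intracellular microbes, held 3 of the 5 calls. These families hold 8 of the 33 genes, and 14.3% of all tested genes passed. Igtp (Irgm3) had an FPKM of 37.8 and 33.1 in controls, 9.84 and 8.33 in treated wild type and 10.6 and 8.73 in treated knockout. The treated livers of both genotypes were far below the controls, and Igtp fell by 1.75 ± 0.19 on the log2 scale in wild type (edgeR adjusted p = 0.00553, or 0.0203 in the fit with a library-set term). Irgm2 had 14.0 and 15.3, 7.80 and 5.66, and 6.48 and 5.23, and it fell by 0.90 ± 0.22 (edgeR adjusted p = 0.0454, or 0.142 in the fit with a library-set term). Gbp2 (chromosome 3, plus strand) went the other way, with 1.74 and 1.48, 4.37 and 2.59, and 4.80 and 4.04, and rose by 1.33 ± 0.31 (edgeR adjusted p = 0.0429, or 0.163 in the fit with a library-set term). Igtp, Irgm2 and Gbp2 all held an ISRE core in the sequences above.

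The other 5 GTPases did not pass in wild type. Ifi47 had an FPKM of 15.6 and 8.96 in controls, 3.65 and 8.17 in treated wild type and 3.30 and 3.72 in the knockout. Its controls differed widely, and it did not pass in wild type (-0.86 ± 0.42, edgeR adjusted p = 0.221). Iigp1, one of the most abundant members per length, ran from 19.9 to 31.5, Irgm1 from 9.53 to 16.4 and Gbp7 from 0.834 to 1.30. Gbp3 had 1.23 and 1.83, 3.26 and 1.67, and 2.97 and 3.69. Iigp1 had a log2 fold change of -0.11 ± 0.18 and Gbp3 of 0.91 ± 0.38 in wild type (edgeR adjusted p = 0.729 and 0.164).

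Among the remaining regulators, Trim30a, a brake on toll-like receptor signalling, had an FPKM of 0.812 and 1.21 in controls, 1.52 and 1.30 in treated wild type and 2.60 and 2.46 in the knockout, 3 groups that did not overlap. Ifi35 had 19.9 and 19.5, 13.1 and 10.95, and 12.1 and 11.8, lower in every treated liver, with a wild-type change of -0.50 ± 0.15 on the log2 scale (edgeR adjusted p = 0.0797). Xaf1, a pro-apoptotic protein gene, ran from 1.44 to 2.92 and Parp14, an ADP-ribosyltransferase gene, from 2.13 to 4.43. Ifi44 was the least abundant of these 5 genes, at 0.274 to 0.760.

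**Figure D2:**
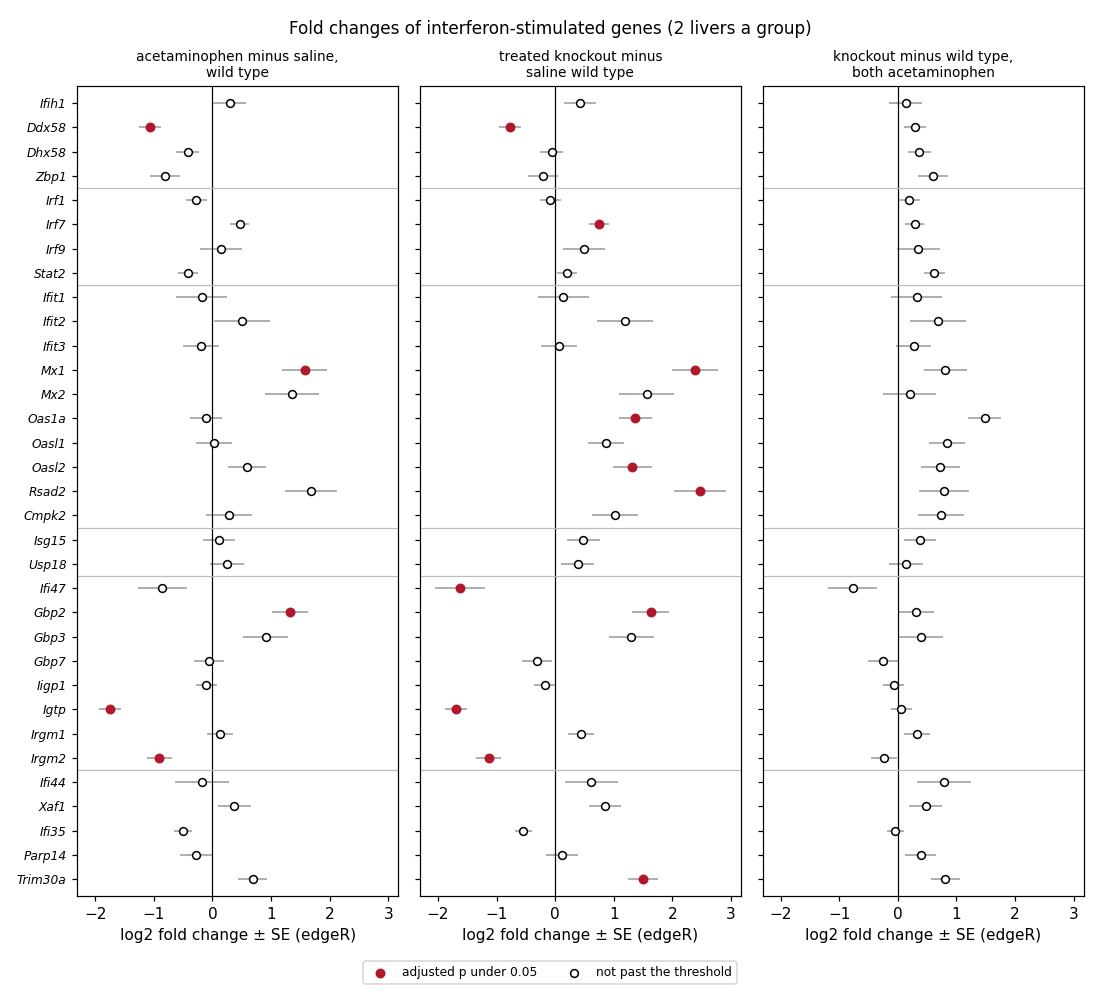
Log2 fold change of each of the 33 genes (horizontal, with its standard error as a bar) in 3 comparisons of 2 livers a group; filled points passed an edgeR adjusted p of 0.05. In the first panel 5 points are filled, in the second 11 and in the third 0, and the 2 comparisons with saline share their control livers.

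The calls in wild type depended on the fit. Igtp passed under all 14 alternatives tried, Ddx58 under 8 of the 13 that gave a value and Irgm2 under 7 of 14. Gbp2 passed under 3 of 13 and Mx1 under 2 of 13. With 1 liver left out, which leaves a lone liver in its group, the median log2 fold change of the 33 moved. It was -0.07 without control replicate 3, 0.27 without control replicate 6, -0.21 without wild-type acetaminophen replicate 1 and 0.26 without wild-type acetaminophen replicate 4. Over all tested genes it was 0.03, 0.01, 0.01 and 0.02 in the same order. In the library set with muscle traces, both treated wild-type livers lay above control replicate 3 for 17 of the 33 genes and below it for 10, beside 42.1% and 38.7% of all tested genes.

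A wider list of 89 further interferon-stimulated genes, of which 72 were tested, was also followed in wild type. Of the 72, 2 rose and 1 fell, where 14.3% of all tested genes passed, and 21 had an unadjusted p under 0.05, where 32.3% of all tested genes did. Cxcl10, a chemokine induced by interferon and by NF-kB, rose from an FPKM of 1.14 and 1.61 to 13.4 and 8.62, Slfn2, a schlafen gene of leukocytes, from 0.977 and 1.94 to 16.2 and 6.98, and Dtx3l, a ubiquitin ligase gene, fell from 6.81 and 6.48 to 2.60 and 3.10 (edgeR adjusted p = 0.00446, 0.0164 and 0.0103). Parp9, the partner of Dtx3l, missed the threshold at -0.70 ± 0.18 on the log2 scale (edgeR adjusted p = 0.0539). The median of the 72 was 0.14.

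Treated knockout livers were also set against saline wild type, a comparison that joins genotype and treatment and shares its controls with the first. Here 11 of 33 passed, where 20.3% of all tested genes did, with 7 rising (12.2% of all) and 4 falling (8.05%). Those that rose were Rsad2 (2.47 ± 0.45), Mx1 (2.39 ± 0.39), Gbp2 (1.63 ± 0.31), Trim30a (1.502 ± 0.25), Oas1a (1.37 ± 0.28), Oasl2 (1.32 ± 0.33) and Irf7 (0.75 ± 0.17), on the log2 scale, with edgeR adjusted p from 0.0126 to 0.042. Igtp (-1.69 ± 0.19), Ifi47 (-1.63 ± 0.43), Irgm2 (-1.14 ± 0.22) and Ddx58 (-0.76 ± 0.19) fell, with edgeR adjusted p from 0.00415 to 0.0465. The median over the 33 was 0.45, against -0.0018 over all tested genes. An unadjusted p under 0.05 was found for 18 of the 33 (13 higher and 5 lower) and for 35.9% of all tested genes (19.5% and 16.4%). Positive fold changes were found for 23 of the 33 and for 49.9% of all tested genes. Both knockout livers lay above both controls in FPKM for 15 genes and below both for 9, beside 24.3% and 44.5% of all tested genes. All 10 antiviral effectors had positive fold changes and 4 of them passed, while 1 of the 8 GTPases rose and 3 fell.

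This comparison also depended on the fit. The count was 1 (Igtp) in the fit with a library-set term, where 8.22% of all tested genes passed. Leaving out 1 liver, which leaves a lone liver in its group, moved the median log2 fold change of the 33. It was 0.14 without control replicate 3, 0.75 without control replicate 6, 0.31 without knockout replicate 4 and 0.52 without knockout replicate 5. Over all tested genes it was 0.01, -0.01, -0.005 and -0.03 in the same order. Within the library set with intestinal traces, both knockout livers lay above control replicate 6 for 16 of the 33 genes and below it for 9, beside 41.3% and 40.4% of all tested genes. Of the 72 wider genes tested, 10 rose and 3 fell in this comparison, where 12.2% of all tested genes rose and 8.05% fell. Cxcl10 rose by 3.61 ± 0.32, Slfn2 by 3.75 ± 0.53 and Ifi211, of the AIM2-like family, by 2.89 ± 0.52, while Dtx3l fell by 0.78 ± 0.14 (edgeR adjusted p = 0.00249, 0.00824, 0.0163 and 0.0151).

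The third comparison asks whether loss of Optn changes these genes in treated livers. None of the 33 genes passed in edgeR, where 0.103% of all tested genes did (0.0514% higher and 0.0514% lower). An unadjusted p under 0.05 was found for 4 of the 33 (Oas1a, Stat2, Trim30a and Oasl1, all higher in the knockout), beside 8.77% of all tested genes (4.92% higher and 3.85% lower). By other tools, limma called 0 and DESeq2 called 1, Oas1a. The direction leaned to one side: 28 of the 33 were higher in the knockout, against 49.9% of all tested genes, with a median log2 difference of 0.35 against -0.00059. Both knockout livers exceeded both treated wild-type livers in FPKM for 19 of the 33 genes and lay below both for 0, where 23.1% and 15.9% of all tested genes did so.

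Oas1a (chromosome 5, minus strand), which encodes a 2′-5′ oligoadenylate synthetase that activates RNase L, differed most. Its FPKM was 1.98 and 2.03 in treated wild type and 5.83 and 5.63 in treated knockout, with 1.87 and 3.15 in the controls, and the replicates of each treated group lay close together. The log2 fold change was 1.48 ± 0.28 (95% interval 0.80 to 2.17, edgeR adjusted p = 0.293, DESeq2 adjusted p = 0.000383), and it was 0.76 ± 0.35 in the fit with a library-set term (edgeR adjusted p = 0.9999). Leaving out either treated wild-type liver left the difference at 1.498 and 1.47.

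The other antiviral effectors did not pass by any of the tools, and their differences were smaller. Oasl1, an OAS-like regulator, had an FPKM of 6.42 and 7.57 in treated wild type and 8.61 and 17.1 in the knockout (log2 fold change 0.84 ± 0.31, edgeR adjusted p = 0.526), with the second knockout liver well above the first. Oasl2 had 0.956 and 0.929 against 1.5999 and 1.59 (0.72 ± 0.33, edgeR adjusted p = 0.61). Rsad2 had a difference of 0.79 ± 0.43, which was 1.56 without wild-type acetaminophen replicate 1 and 0.29 without replicate 4. All 10 effectors had positive differences, beside 49.9% of all tested genes. For 7 of them the knockout livers lay above both treated wild-type livers in FPKM, beside 23.1% of all tested genes. The treated groups overlapped for Mx2, Ifit1 and Ifit3.

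No regulator and no GTPase passed, and a difference between these groups of genes was not tested. Stat2 differed by 0.62 ± 0.17 (edgeR adjusted p = 0.489) and Trim30a by 0.81 ± 0.25 (0.509). For all 4 transcription factors both knockout livers lay above both treated wild-type livers in FPKM, as they did for 23.1% of all tested genes. Of the 8 GTPases, 4 differences were positive and 4 negative, the median was -0.0048, and the treated groups overlapped for all 8. Igtp differed by 0.06 ± 0.18 (95% interval -0.39 to 0.50, edgeR adjusted p = 0.948). Of the 72 wider genes tested, 0 passed in edgeR and 5 had an unadjusted p under 0.05, where 0.103% and 8.77% of all tested genes did. Their median was 0.25. Smallest in p was Helz2, a helicase gene (edgeR adjusted p = 0.489). Receptors, upstream genes, other regulatory factors and negative regulators gave 0 calls in edgeR, with an unadjusted p under 0.05 for 0, 0, 0 and 1 of them and medians of 0.10, 0.03, 0.20 and 0.04.

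The size of these differences varied with the treated wild-type library used. Wild-type acetaminophen replicate 4 was below replicate 1 for 30 of the 33 genes (median difference 0.52 on the log2 CPM scale), where 50.5% of all tested genes lay that way. Both knockout livers exceeded replicate 4 for 28 of the 33 and replicate 1 for 16, beside 34.7% and 35.8% of all tested genes. Without replicate 4, 21 of the 33 were higher in the knockout with a median of 0.16, and without replicate 1 it was 32 with a median of 0.72. Without knockout replicate 4 it was 26 with a median of 0.23, and without knockout replicate 5 it was 28 with a median of 0.45. In the fit with a library-set term, 18 of 33 were higher, with a median of 0.05. The set term of that fit comes only from the controls, 1 liver in each set. It therefore cannot tell a genotype difference from a library-set difference.

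**Figure D3:**
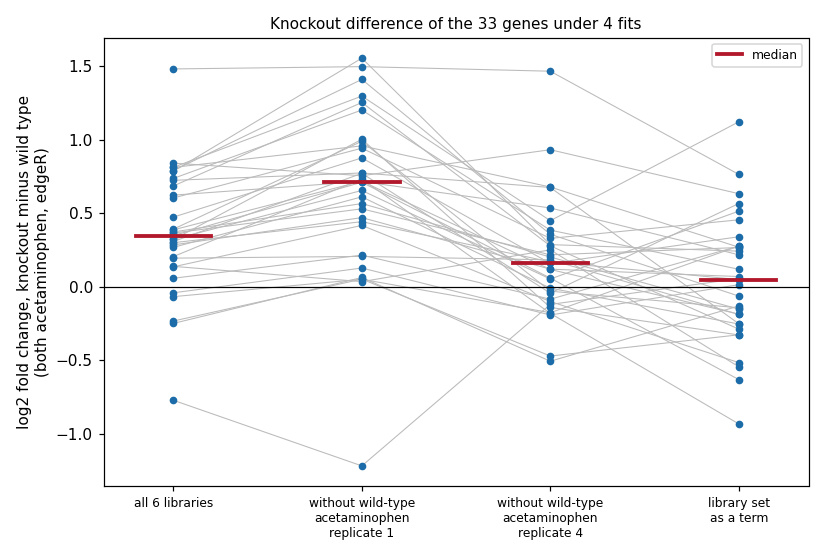
Log2 fold change between treated knockout and treated wild-type livers for each of the 33 genes (vertical axis), in the fit of all 6 libraries, without each treated wild-type liver and with a library-set term; lines join the points of 1 gene and bars mark the median. The median stood at 0.35, 0.72, 0.16 and 0.05. The library-set term of the last fit rests on 1 control liver in each set.

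The 2 controls also differed along the division of the libraries. Control replicate 6, which shares intestinal traces with the knockout livers, was above control replicate 3 for 25 of the 33 genes, with a median difference of 0.41 on the log2 CPM scale, where 51.3% of all tested genes were. Across the 33 genes the difference between these 2 controls and the difference between knockout and treated wild type had a Spearman rho of 0.43, and 0.16 across all 11677 tested genes. The points of each pair share their libraries, so this is a description only. Knockout replicate 4 was above replicate 5 for 28 of the 33 genes, against 49.4% of all, and was the highest of the 6 libraries for 19 of them. Knockout replicate 5 was the highest for 3, and 1 of these 2 livers was the highest for 33.6% of all tested genes.

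Marker genes of immune cells were also followed, and an association with the 33 genes was not tested. The 9 Kupffer cell markers, none at 0 in any library, summed to 142.1 and 376.5 CPM in the controls (replicate 3, then 6), to 355.2 and 306.6 in treated wild type (1, then 4) and to 572.1 and 378.0 in the knockout (4, then 5). This sum was lower in control replicate 3 than in replicate 6, lower in treated wild-type replicate 4 than in replicate 1 and highest in knockout replicate 4, an order that the antiviral effectors partly shared. The 10 effectors summed to 68.9 and 102.4, 113.5 and 77.7, and 152.4 and 153.8 CPM. The 12 T cell and NK cell markers summed to 4.65 and 5.81 CPM in the controls, 26.7 and 15.3 in treated wild type and 27.8 and 27.2 in the knockout, with Cd3e at most 0.773 CPM and Ncr1 at 0 in both controls. The largest part in treated livers was Ccl5, at 0.541 and 0.554 CPM in the controls and 6.98 to 15.2 in treated livers. Gzma, Gzmb, Prf1, Klrb1c and Ncr1 also lay above both controls in all treated livers. Cd3g, Cd4 and Cd8a overlapped the controls, and Cd3e was lower in both knockout livers (0.104 and 0.256) than in both controls (0.304 and 0.277). The 11 neutrophil markers summed to 2.86 and 7.80 CPM in the controls, 151.1 and 72.4 in treated wild type and 157.4 and 204.3 in the knockout. Unlike most of the 33 genes, this sum was higher in knockout replicate 5 than in replicate 4. The 8 markers of infiltrating monocytes summed to 1183 and 1354 CPM in the controls, 1552 and 1685 in treated wild type and 1949 and 1683 in the knockout, mostly Fn1, which hepatocytes also express. Of the 6 tested, 3 rose in wild type and 5 rose in treated knockout against saline, where 8.36% and 12.2% of all tested genes rose. Between the treated groups 0 of the 6 passed in edgeR, beside 0.103% of all tested genes. An unadjusted p under 0.05 was found for Chil3 and Cd14, and for 8.77% of all tested genes. For 7 of the 8 (all but Fn1) both knockout livers lay above both treated wild-type livers, as they did in FPKM for 23.1% of all tested genes. Most of the 33 genes were also higher in the knockout, and a link to cell content was not tested. Chil3, a chitinase-like protein gene of monocytes and macrophages, had 3.08 and 2.51 CPM in treated wild type and 10.3 and 11.7 in the knockout (log2 fold change 1.94 ± 0.27, edgeR adjusted p = 0.181). Cd14, the lipopolysaccharide co-receptor, had 96.5 and 51.4 CPM against 184.7 and 133.3 (1.07 ± 0.42, edgeR adjusted p = 0.555).

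The 8 markers of plasmacytoid dendritic cells, which make much interferon alpha, summed to 152.8 and 187.4 CPM in the controls, 143.6 and 145.7 in treated wild type and 137.3 and 143.0 in the knockout. Most of this was Bst2, itself interferon-stimulated, with 149.7 and 183.2 CPM in the controls and 131.1 to 139.4 in the treated livers. Siglech, a more specific marker, had 0.0676 and 0.224 CPM in the controls and 0.298 to 1.04 in the treated livers, all above both controls. It had only 4 to 65 counts and did not reach the filter. For Tcf4, Ccr9, Pacsin1, Spib, Cox6a2 and Klk1 the treated livers overlapped the controls. The part of these cells in the results was not tested.

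**Figure D4:**
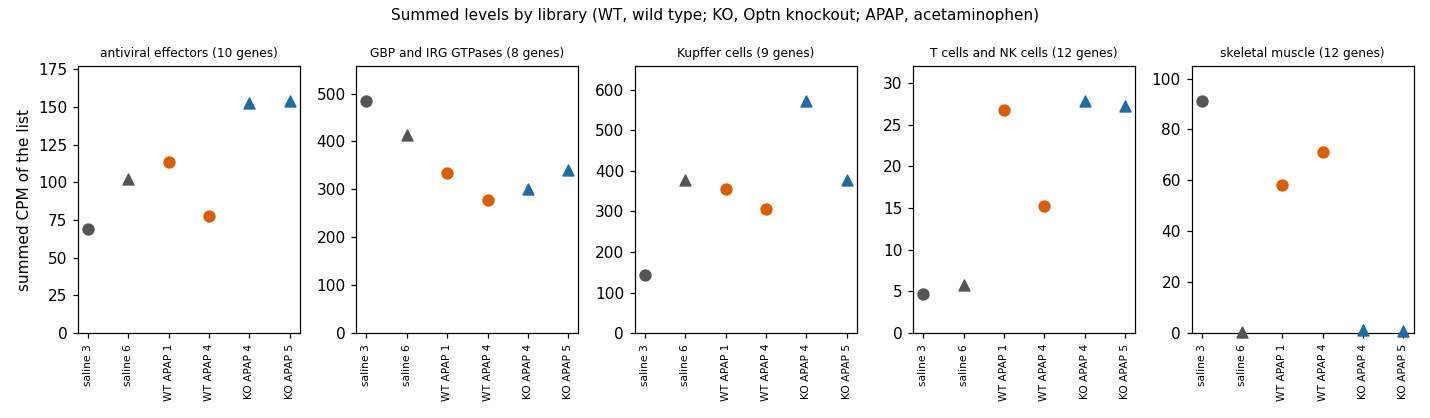
Summed CPM (vertical axes from 0, each panel on its own scale) of the 10 antiviral effectors, the 8 GTPases and 3 lists of markers in each library, with colour for the group, circles for libraries with muscle traces and triangles for those with intestinal traces. The effectors sum to 152.4 and 153.8 CPM in the knockout livers, and the GTPases sum to 277.2 to 339.5 CPM in treated livers against 484.2 and 412.7 in the controls. The sums are not TMM-scaled and do not show a like fall in each gene. Of the 8 GTPases, 3 had positive and 5 negative log2 fold changes in wild type, with a median of -0.08.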

How the data were processed

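Per the file headers, the deposited table gives raw whole-number counts for each gene beside FPKM values that the authors computed, with 0.0001 standing for a count of 0. Bowtie 0.12.2 and mm8 are named in the submitters' processing notes. The coordinates equal those of GRCm38 (GENCODE M21) for 94.3% of genes and for 29 of the 33 members, so they are given as GRCm38. Neither the counter nor its strand setting is given in the sources used here.

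Counts were tested with edgeR 4.0.16 (quasi-likelihood test, TMM scaling, R 4.3.3) in 1 model of 3 group means over 6 libraries, at a mean FPKM of at least 0.5 and a Benjamini-Hochberg adjusted p under 0.05 over all 11677 genes. Residual degrees of freedom were 3 and prior ones 2.93. Because an exact permutation test of 2 against 2 mice cannot give a two-sided p below 0.333, it was not used. Intervals use the same degrees of freedom. DESeq2 1.42.0, limma 3.58.1 on log2(FPKM + 0.5) and other settings were alternatives, and the models were tested on simulated data. Comparisons across the library sets use log2 CPM with TMM scaling. Each library comes from 1 animal, per the series' design text. Any member could be named, with the ligands, the receptors and up to 4 genes of smallest p per further list, and markers by their lists. Some items of these lists are not reported here. Members, lists and library sets were chosen with earlier results of these data known. The labels' protocols name an adipose type in the extraction text although the tissue label is liver, which was not resolved.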

Additional observations from a re-analysis of the deposited data

How the results depend on the processing

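With 2 mice a group, the number of the 33 genes past the threshold, which was 5 for the drug in wild type, 0 for genotype among treated mice and 11 for treated knockout against saline, changed with several settings. DESeq2 called 9, 1 and 16. At a mean FPKM of at least 5, where 11 members were tested, 3, 0 and 5 passed. In the fit with a library-set term 1, 0 and 1 passed, and with only the 2 groups compared 2, 0 and 13. Leaving out 1 library at a time gave 1 to 4, 0 to 0 and 1 to 13, with fewer samples in each fit and the lone liver of a group assumed to vary like the other groups. In limma, with scaling by total count and with no filter the counts were 5, 0 and 11 or 12. Over all tested genes, the calls in the 3 comparisons were 1667, 12 and 2366, against 3107, 291 and 3620 in DESeq2, 812, 3 and 960 with that term, 819, 13 and 1035 at a mean FPKM of at least 5 and 1961, 37 and 2478 with no filter. No member called in a comparison changed direction under any alternative that was run. No paired analysis was made because the labels name no pairs of mice across the groups.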
